A study of Mus musculus with 25 samples.

Results

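The wide H3K27me3 domains of mouse neural progenitor cells (NPC) were the peaks of the NPC list that span more than 10 kb from start to end. They were selected on their width alone, and 2316 of the 44807 NPC peaks met the rule (5.17%). Together they covered 48.2 Mb, which was 35.2% of the 136.9 Mb under all NPC peaks. Because width chose them, their widths are given as a description and were not tested.

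H3K27me3 is the trimethyl mark on lysine 27 of histone H3. Polycomb repressive complex 2 (PRC2), with Ezh2 as its main catalytic subunit, writes the mark and also binds it, so that marked nucleosomes can recruit the complex that marks their neighbours. In mammals the mark is known from the CpG-rich promoters of developmental regulators that a cell type keeps silent, and it can spread from there into broad blocks. In neural progenitors it is known from genes of other lineages and from genes of neurons and glia that these cells do not yet use.

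The study asked whether silencing by Polycomb is remembered in cis, as its title states. Its NPC were wild type and derived from embryonic stem cells, were grown with EGF and FGF2, and were profiled by CUT&RUN, in which an antibody tethers a nuclease that cuts the marked chromatin free. Untreated NPC gave 2 libraries. Another 2 came from NPC treated with 2 uM UNC1999 and 4 uM A395, both inhibitors of PRC2, and the last 2 from NPC from which the compounds had been washed out. Mouse embryonic fibroblasts (MEF) immortalized with c-myc, in a line A and a line B, were profiled by ChIP-seq of sonicated chromatin. Each line had 2 libraries of wild-type cells, 2 of Ezh2 -/- cells and 2 of cells with Ezh2 restored, in line A by retroviral pMSCV-Ezh2 and in line B, where the deletion is labelled reversible, as an endogenous rescue. The other 7 of the 25 libraries (input, RNA polymerase II, H3K4me3 and H3K36me3 in line A) entered no comparison here. Strain, age and whether a line is clonal are not stated in the labels. No treatment appears in the name of the NPC list, and a MEF list is named by the library titles of wild-type and Ezh2 -/- cells of 1 line, put end to end. Which libraries entered the calls, and how, is not given in the sources read here. Untreated, inhibited and washed-out cells could therefore not be compared, and no value below has a replicate. Depth is unknown, since the lists hold positions only.

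Positions are in mm10 (GRCm38), counted from 1. The promoters that follow show the sequence under wide domains of each kind described below: under peaks of both MEF lines (Cbfa2t3), of line A and not B (Dusp8), of line B and not A (Magel2) and of neither (Kif5c). Each is the window in the widest domain of its kind whose named gene has its whole promoter window under that domain, taken where several did from the gene with the most covered length. The homeobox gene and the olfactory receptor gene with the most sequence under wide domains among those with such a window follow. Each sequence runs from 250 bases before to 50 bases after a listed start of the gene, on its strand, from RefSeq (GRCm38.p6). The listed start nearest the 5' end of the gene record was taken. At Cbfa2t3 it lies within the record, whose 5' end is at position 122699332, so most of that window is inside the record. Capitals mark CG dinucleotides, the sites of DNA methylation in mammals.

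Cbfa2t3, a corepressor of the ETO family, at chr8:122699060-122699359, minus strand, with 10 CG dinucleotides.
Cbfa2t3: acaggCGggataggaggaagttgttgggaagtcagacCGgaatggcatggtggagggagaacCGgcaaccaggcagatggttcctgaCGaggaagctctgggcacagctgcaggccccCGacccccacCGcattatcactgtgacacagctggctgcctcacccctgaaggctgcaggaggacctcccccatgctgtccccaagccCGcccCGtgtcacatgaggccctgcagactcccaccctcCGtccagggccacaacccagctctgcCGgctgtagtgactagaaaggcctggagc

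Dusp8, a phosphatase of MAP kinases, at chr7:142095235-142095534, minus strand, with 34 CG dinucleotides.
Dusp8: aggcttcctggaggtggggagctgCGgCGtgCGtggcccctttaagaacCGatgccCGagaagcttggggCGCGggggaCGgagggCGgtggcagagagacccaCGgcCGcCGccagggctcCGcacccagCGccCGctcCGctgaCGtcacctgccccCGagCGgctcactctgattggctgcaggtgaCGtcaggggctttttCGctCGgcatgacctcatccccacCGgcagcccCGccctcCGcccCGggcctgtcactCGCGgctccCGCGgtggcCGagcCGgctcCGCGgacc

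Magel2, an imprinted gene expressed from the paternal copy, at chr7:62376729-62377028, plus strand, with 10 CG dinucleotides.
Magel2: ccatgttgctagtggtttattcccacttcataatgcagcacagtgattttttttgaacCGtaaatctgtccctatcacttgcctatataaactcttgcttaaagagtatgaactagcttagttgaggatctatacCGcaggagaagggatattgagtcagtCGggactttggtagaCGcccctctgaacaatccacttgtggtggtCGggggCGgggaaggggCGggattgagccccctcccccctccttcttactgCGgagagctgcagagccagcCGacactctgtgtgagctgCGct

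Kif5c, a kinesin motor of neurons, at chr2:49619036-49619335, plus strand, with 14 CG dinucleotides.
Kif5c: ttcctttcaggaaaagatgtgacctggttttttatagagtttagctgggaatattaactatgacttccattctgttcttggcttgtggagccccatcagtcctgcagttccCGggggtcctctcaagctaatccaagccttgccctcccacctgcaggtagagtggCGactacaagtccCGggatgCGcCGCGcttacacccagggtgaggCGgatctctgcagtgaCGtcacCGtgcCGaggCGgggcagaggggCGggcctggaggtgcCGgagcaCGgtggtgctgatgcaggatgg

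Pax2, a regulator of kidney, eye and midbrain development, at chr19:44746351-44746650, plus strand, with 7 CG dinucleotides.
Pax2: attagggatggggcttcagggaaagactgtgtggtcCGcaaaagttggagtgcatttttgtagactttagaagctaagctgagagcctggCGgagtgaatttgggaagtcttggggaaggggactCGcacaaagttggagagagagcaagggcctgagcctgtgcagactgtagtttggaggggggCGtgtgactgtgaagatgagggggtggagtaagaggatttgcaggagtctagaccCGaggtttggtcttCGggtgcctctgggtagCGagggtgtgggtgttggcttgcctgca

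Olfr558, an olfactory receptor gene, at chr7:102702073-102702372, plus strand, with 0 CG dinucleotides.
Olfr558: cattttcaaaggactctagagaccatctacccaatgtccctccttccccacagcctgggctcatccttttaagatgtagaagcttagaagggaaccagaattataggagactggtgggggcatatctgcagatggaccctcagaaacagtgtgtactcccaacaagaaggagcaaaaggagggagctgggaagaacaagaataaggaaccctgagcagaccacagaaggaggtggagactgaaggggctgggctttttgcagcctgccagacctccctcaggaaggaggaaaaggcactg

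Over all genes, promoter windows under wide domains had CG counts close to those of other windows. Of the 16457 autosomal genes with such a window, 534 had the whole window under a wide domain. These windows held a median of 13 CG dinucleotides (quartiles 4 and 26), against 14 over all 16457 windows (quartiles 4 and 25), 12 in the 1116 windows that touched only NPC peaks of 10 kb or less and 14 in the 14789 windows with no NPC peak. At least 15 CG dinucleotides stood in 47% of the windows under wide domains and in 48.8% of all windows, and 3 or fewer in 22.3% and 24%. The count followed the kind of gene and the chromosome. The 50 windows of developmental transcription factor genes under wide domains had a median of 19, and the 39 of olfactory and related receptor genes a median of 1, close to the medians over all windows of these classes (18 over 324 windows and 1 over 1269). In some other classes the windows under wide domains held more than the class as a whole. The medians were 20.5 against 10 for potassium channels and 20 against 9 for other channels, over 8 and 12 windows. They were 27.5 against 12 for transmitter receptors and 30 against 20 for secreted signals, over 14 and 18 windows. In further classes the windows held fewer. The medians were 20 against 23 for enzymes that build glycans, 10 against 15 for solute carriers and 15 against 19 for synaptic genes, over 9, 12 and 7 windows. Windows under wide domains of chromosome 7 had a median of 6 and those of the other autosomes 15, and all windows of chromosome 7 had 7. Where the window lay in a domain that both MEF lines covered over at least 50% of its length, the median was 17 (217 windows). It was 6 with line A alone (63 windows), 14 with line B alone (73 windows) and 13 with neither (181 windows). Chromosome 7 held 120 of the 404 domains covered by line A alone. The windows of each kind of coverage were not split by chromosome, so the part of chromosome 7 in the low median was not tested. The limits of 15 and 3 were chosen after the values were seen.

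The wide domains had a median width of 15 kb (quartiles 11.9 and 22.6 kb), and a few were very long. Widths above 15 kb were reached by 1150 domains, above 20 kb by 716, above 50 kb by 112 and above 100 kb by 22. The domains nearest to the threshold were 10003, 10008 and 10014 bp wide. They lay on chromosome 14 outside any gene record, on chromosome 6 over the GABA transporter gene Slc6a11 and on chromosome 13 over Fam169a. The 3 widest peaks left out were 9995, 9993 and 9993 bp wide, and 1 of them lay over the potassium channel gene Kcnq3. Of the wide domains, 716 (30.9%) had another within 10 kb and 1198 (51.7%) within 50 kb. No such share is given here for narrower NPC peaks, so closeness is not shown to be particular to wide domains.

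The widest domain of all held no protein-coding gene. It lay at chr6:99872366-100219212 and spanned 346.8 kb, of which line A peaks covered 71.8% and line B peaks 8.95%. The next, at chr8:122617887-122784202 (166.3 kb), took in all of Cbfa2t3 and of Pabpn1l, which encodes a poly(A)-binding protein, and part of the mitochondrial enzyme gene Acsf3, and was covered over 82.9% and 73.9%. At chr7:96458881-96624436 a domain of 165.6 kb lay within Tenm4, a teneurin of the neuronal surface, and was covered over 34.4% and 6.16%. A domain of 154.5 kb at chr4:120113048-120267528 held Edn2, which encodes the peptide endothelin 2, with parts of Hivep3 and Foxo6, and MEF peaks covered 2.43% and 0.506% of it. At chr2:27038834-27186120 a domain of 147.3 kb took in 4 whole genes of unlike function and was covered over 93.6% by line A and 38.9% by line B. They were Mymk, which encodes the myoblast fusion protein myomaker, Dbh, which encodes the enzyme that makes noradrenaline, the matrix gene Adamtsl2 and Fam163b. The domain over Nfam1, an immune receptor gene, and part of Tcf20 (141 kb, chromosome 15) was covered over 75.6% and 54.1%. That over parts of Tox2 and of Jph2, a junction protein of heart muscle (131.3 kb, chromosome 2), was covered over 94.3% and 86.3%. The domain within the matrix gene Thsd4 (140.5 kb, chromosome 9) had 2.05% and 5.99%. The 2 others among the 10 widest, on chromosome 19 (131.2 kb) and chromosome 7 (120 kb), overlapped no gene. The widest domains thus ranged from nearly full to nearly no MEF coverage.

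Wide domains overlapped 1092 of the 20665 autosomal protein-coding gene records by at least 1 bp (5.28%). The whole record lay inside 1 domain for 230 genes (1.11%), of which 17 were predicted genes. Genes that overlapped a domain had long records, with a median of 40.9 kb against 17.5 kb over all genes, while the genes inside had a median of 3.89 kb, since a short record fits into a domain more easily. The domains with a gene numbered 1287, of which 203 held a whole gene and 543 lay within the record of 1 gene. Exons and introns were not told apart here. The other 1029 domains (44.4%, 95% exact binomial interval 42.4 to 46.5%) overlapped no protein-coding record. These lay a median of 58.6 kb from the nearest record, 195 of them within 10 kb, 392 more than 100 kb and 48 more than 500 kb away. Up to 4 genes shared a domain, as at a cluster of olfactory receptor genes on chromosome 1 (Olfr12, Olfr1410, Olfr1411 and Olfr1412, in 57.7 kb). Intervals in this text cover counting error only. Neighbouring genes and peaks share domains and are not independent, so they are too narrow, and no test was made over them.

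The longest genes wholly inside a domain came from many tissues. After Cbfa2t3 (74.2 kb) stood Synpo (66.2 kb), an actin-binding protein of kidney podocytes and dendritic spines, whose domain had 1.55% under line A peaks and 0% under line B peaks. The desmosome gene Pkp1 (47.8 kb) had 71.5% and 16.7%, the synaptotagmin gene Syt13 (41 kb) 23.5% and 87.5%, and the zinc finger gene Plag1 (39.7 kb) 64.8% and 82.3%. Wee2, a kinase of oocytes (31.6 kb), had 81% and 71.2%. P4ha2 (30.7 kb), which encodes an enzyme that hydroxylates collagen, had 0.456% and 1.97%. Atoh8, a bHLH factor (29.6 kb), had 2.03% and 0.935%, and the DNA-binding factor gene Arid3a (28 kb) 82.6% and 5.06%. Nfam1, Fam163b and Adamtsl2 complete the 12.

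Developmental transcription factor genes met wide domains in larger shares than genes as a whole. Of 198 homeobox genes 42 overlapped a wide domain (21.2%, interval 15.7 to 27.6%), of 69 bHLH genes 18 (26.1%, interval 16.3 to 38.1%) and of 193 other developmental factor genes 33 (17.1%, interval 12.1 to 23.2%), beside 5.28% of all genes. Whole genes inside a domain numbered 21, 13 and 10. These classes have short or middling records (medians of 6.87, 3.29 and 20 kb). By promoter window, which does not depend on the length of the record, 17.3%, 25.5% and 10% lay under a wide domain, beside 3.24% of all windows. The classes were drawn up by symbol with earlier results of these data known.

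Among homeobox genes the longest stretches lay over Zfhx3, a large zinc finger and homeodomain factor, with 171.4 kb in 6 domains. Pax3, of neural crest and dorsal neural tube, had 66.3 kb, Pax2 63.9 kb, and Cux2, of upper-layer cortical neurons, 44.8 kb. The Pax2 domains lay 100% under peaks of each MEF line, and the Pax3 domains 96.9% under line A and 3.55% under line B. Other homeobox genes lay whole inside domains that both lines covered over at least 90%, among them the hypothalamic factor gene Otp, Hoxc13, which acts in hair and posterior patterning, and Hmx1, of sensory ganglia and eye. These 3 were chosen after their values were seen. Dlx5 and Dlx6, neighbours that act in interneurons and the face, shared a domain of 44.5 kb with 94.4% under line A peaks and 0% under line B peaks. Among bHLH genes Sim2, of the midline, had 38.6 kb covered, Atoh8 29.6 kb, the hypothalamic factor gene Sim1 21.1 kb and Hey2, a Notch target, 4.63 kb. The proneural genes Neurog1, Neurog2 and Neurog3 each lay whole inside a domain with at least 85.1% under line A peaks and at least 97.5% under line B peaks, and were also chosen after their values were seen. Among the other factors Foxp2, of speech and motor circuits, had 73.6 kb with 1.28% and 0%, and the retinoic acid receptor gene Rarb 47.7 kb with 0% in each line. Prdm11 had 24.6 kb with 19.9% and 74.4%, and Gata4, of heart and endoderm, 23.7 kb with 100% and 0%. Over each class, the median domain coverage was 92.5% and 88.4% for homeobox genes (line A and line B), 83.6% and 91.1% for bHLH genes and 86.4% and 74.4% for the other factors, beside 57.2% and 39% over all 1092 genes.

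Secreted developmental signals and their antagonists showed a like share. Of 94 genes, 25 overlapped a wide domain (26.6%, interval 18 to 36.7%), 6 of them whole, and 28.1% of their promoter windows lay under one. Fgf12, an intracellular member of the FGF family, had 39.7 kb covered, and Wnt3a, a Wnt ligand of the tail bud and hippocampus, 34.5 kb. Dkk3, of the Dickkopf family of Wnt modulators, had 23.7 kb and Rspo1, which potentiates Wnt signals, 20.2 kb. The domains at Wnt3a and Rspo1 lay 95.1% and 99.4% under line A peaks, and 94% and 54% under line B peaks. The domain at Dkk3 had 0% in each line.

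Ion channels, transmitter receptors and proteins of synaptic release formed the next groups, of which the channel classes also hold genes of heart, kidney and other tissues. Overlap was found at 18 of 91 potassium channel genes (19.8%, interval 12.2 to 29.4%), 16 of 93 genes of other channels (17.2%, interval 10.2 to 26.4%), 27 of 149 transmitter and neuropeptide receptor genes (18.1%, interval 12.3 to 25.3%) and 10 of 54 genes of synaptic vesicles and release (18.5%, interval 9.25 to 31.4%), beside 5.28% of all genes. By promoter window the shares were 11.9%, 16.4%, 13.1% and 20%, beside 3.24%. With the whole record inside, the share of the other channels (1 of 93 genes) lay at the level of all genes. Kcnq1, a channel of heart and inner ear in an imprinted cluster, had 209 kb in 5 domains, with 85% under line A and 26.1% under line B peaks, and Kcnn3, a calcium-activated channel, 102.4 kb with 93.5% and 62.3%. The acid-sensing channel gene Asic2 had 111.1 kb in 8 domains, and the calcium channel gene Cacna1c 65.5 kb. Among receptors, the GABA receptor genes Gabrb1 (63.9 kb) and Gabra5 (47.5 kb) had 0% under line A peaks, and 0.292% and 0% under line B peaks, while the glutamate receptor gene Grm8 (50.5 kb) had 40.6% and 68.6%. Among synaptic genes Rims1, a scaffold of the active zone, had 56.2 kb and Syt1, the calcium sensor of release, 33.2 kb, and their domains lay 21.5% and 0% under line A peaks and 0% under line B peaks. Those at Rab3c, a vesicle GTPase (22.5 kb), lay 75.3% and 100% under line A and line B peaks, and the median over the 10 synaptic genes was 30.4% and 46.4%.

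Cell surface genes of neurons had long stretches of the mark, in domains with a low median coverage by MEF peaks. Of 185 adhesion genes 25 overlapped a wide domain (13.5%, interval 8.94 to 19.3%), and of 72 axon guidance genes 13 did (18.1%, interval 9.98 to 28.9%), none of them whole. Their records are long (medians of 97.5 and 57.1 kb), which raises the chance of overlap and lowers that of lying inside, and by promoter window the shares were 10.4% and 11.5% beside 3.24%. Tenm4 had 441.8 kb covered in 12 domains, which was 59.7% of its record. Lingo1, a receptor component that restrains axon growth, had 150.1 kb, Cdhr3, a cadherin, 57.6 kb, and Flrt1, which lies within Macrod1, 59.6 kb. The guidance ligand gene Slit1 had 138.9 kb (92.9% of the record), the semaphorin receptor gene Plxna4 131.1 kb, Ntng1 (netrin G1) 123.4 kb and the Slit receptor gene Robo1 42.5 kb. The median domain coverage of adhesion genes was 7.75% by line A and 15.2% by line B, and that of guidance genes 29.2% and 11.3%. Lingo1 (77% and 92.6%) and Slit1 (80.4% and 77.3%) lay above these medians, and the domains at Robo1 had 0% in each line.

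**Figure D1:**
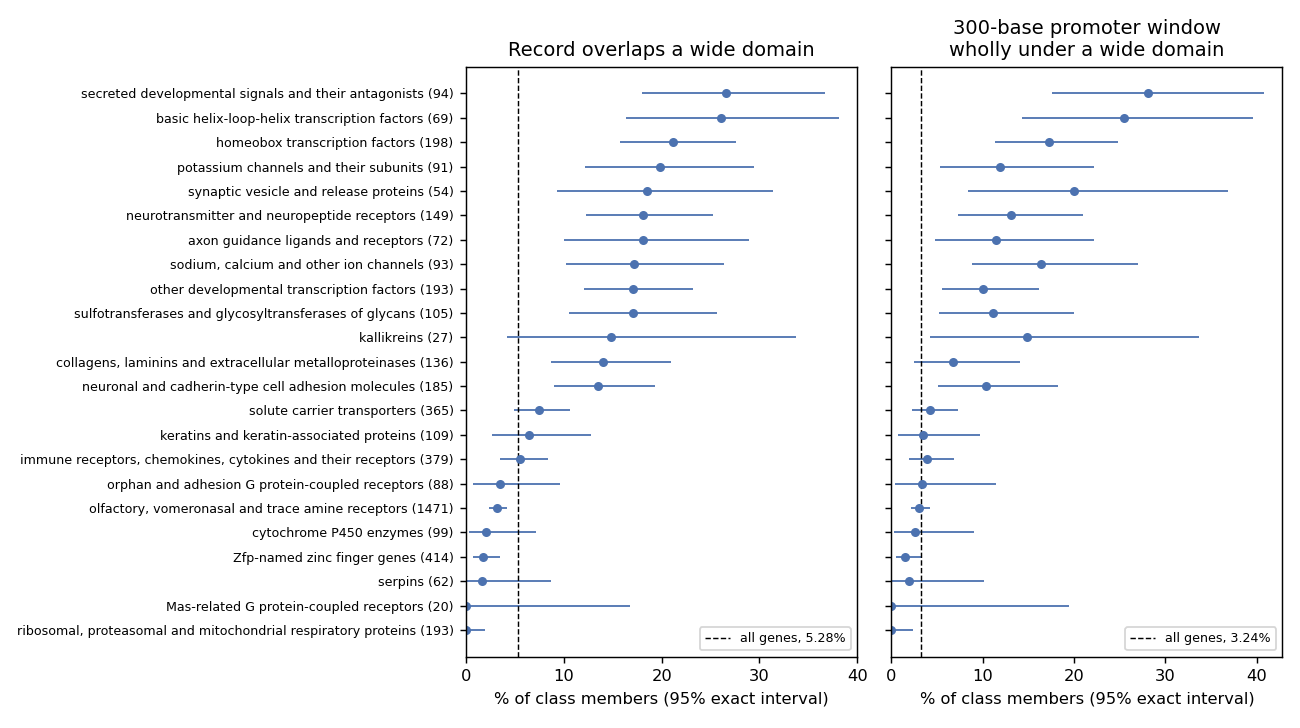
Share of each gene class whose record overlaps a wide NPC domain (left, 5.28% of all genes) and whose promoter window lies wholly under one (right, 3.24% of all windows), in percent of class members. Points are shares, bars 95% exact binomial intervals, dashed lines the share of all genes, and numbers in brackets the members of the class; bHLH genes stand at 26.1% and 25.5%, and ribosomal, proteasomal and respiratory genes at 0% in both panels.

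Enzymes that build glycans overlapped wide domains at 18 of 105 genes (17.1%, interval 10.5 to 25.7%), and collagens, laminins and matrix metalloproteinases at 19 of 136 (14%, interval 8.63 to 21%), beside 5.28% of all genes. Their records are long (medians of 43.2 and 46.2 kb, against 17.5 kb), and no glycan gene and 1 matrix gene lay whole inside a domain, which put both classes below all genes by that measure (by 1.11 and 0.378 percentage points). By promoter window the shares were 11.1% (interval 5.21 to 20%) and 6.74% (interval 2.51 to 14.1%), and the second interval holds the 3.24% of all windows. Hs3st4, which adds sulfate to heparan sulfate, had 306.9 kb in 8 domains, 73.7% of its record, and no MEF peak of either line in any of them. The galactosyltransferase gene B3galt5 had 62.3 kb with 55.3% and 59.8%. Adamtsl3, a matrix gene, had 111.8 kb in 4 domains with 0% in each line, and the basement membrane collagen gene Col4a3 39.8 kb with 91% and 6.59%. Solute carriers stood nearer to the background, with 27 of 365 genes (7.4%, interval 4.93 to 10.6%). The taurine transporter gene Slc6a6 had 60 kb with 0% in each line, and the cation transporter gene Slc22a3 58.8 kb with 100% and 92.3%.

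Among the other classes, several lay below the 5.28% of all genes by wide domain, though not all of these had few NPC peaks of any width. Of 1471 olfactory, vomeronasal and trace amine receptor genes 46 overlapped a wide domain (3.13%, interval 2.3 to 4.15%), of which 40 lay whole inside and 24 were on chromosome 7. Because their records are short (median 0.951 kb), their share inside, taken as a difference from all genes, lay 1.61 percentage points above the background and not below it. Olfr78 (17.5 kb) and Olfr558 (9.73 kb) were covered longest among odorant receptor genes. Zinc finger genes with the name Zfp had 7 of 414 (1.69%, interval 0.682 to 3.45%), led by Zfp536 with 87.4 kb. Immune receptors, cytokines and chemokines had 21 of 379 (5.54%, interval 3.46 to 8.35%), near the background, with Cd163l1 (20.8 kb), Il5ra (18.8 kb) and Il23r (16.6 kb) covered longest. Keratins had 7 of 109 (6.42%), orphan and adhesion G protein-coupled receptors 3 of 88 (3.41%), cytochrome P450 enzymes 2 of 99 (2.02%) and serpins 1 of 62 (1.61%). Kallikreins had 4 of 27 (14.8%, interval 4.19 to 33.7%), each on chromosome 7, where 26 of the 27 lie, and Mas-related receptors 0 of 20, which allows a share of up to 15%. An NPC peak of any width met 35.4% of the immune genes, 43.1% of the keratins, 33% of the orphan receptors, 46.5% of the cytochrome P450 enzymes, 30.6% of the serpins, 63% of the kallikreins and 45% of the Mas-related receptors, each above the 22.3% of all genes. It met 15% of the olfactory class, 11.4% of the Zfp genes and 3.11% of the genes of basic functions that follow. Ribosomal, proteasomal and mitochondrial respiratory genes had 0 of 193, which allows a share of up to 1.55%.

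Marker genes of the cell types are few, and their shares have wide intervals. Of 23 neural progenitor markers, 5 had any NPC peak (21.7%, beside 22.3% of all genes) and 2 met a wide domain (8.7%, interval 1.07 to 28%, beside 5.28%). Hes1, a Notch effector, overlapped one by 29 bp at its edge. Of 19 markers of differentiated neurons 9 met a wide domain (47.4%, interval 24.4 to 71.1%), among them the neurofilament genes Nefl (whole), Nefm and Nefh, the acetylcholine enzyme gene Chat and the catecholamine enzyme gene Th (whole). Of 22 fibroblast markers 4 met a wide domain (18.2%, interval 5.19 to 40.3%). By promoter window the share was 30.8% for neuron markers (4 of 13) and 0 for progenitor markers (0 of 17) and fibroblast markers (0 of 13), beside 3.24% of all windows, so that the last 2 sets lay above all genes by record and below them by window. The MEF coverage of their domains was 0% in each line at Col5a1, a fibrillar collagen gene, and at Pdgfrb, a PDGF receptor gene. At the matrix gene Fbln2 it was 0% by line A and 14.8% by line B, and at Snai2, a factor of mesenchymal cells, 4.26% and 0%. RNA was not measured in the files used here, so these markers check the mark and not the expression. In such bulk profiles a weaker mark and a mark in fewer cells cannot be told apart.

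Wide NPC domains lay partly under MEF peaks, more often under those of line A. Line A peaks covered at least 50% of the length of 1046 domains (45.2%, interval 43.1 to 47.2%), beside 35.9% of all NPC peaks, and line B peaks that of 803 domains (34.7%, interval 32.7 to 36.7%), beside 28.9%. NPC peaks of 8 to 10 kb, just under the threshold, stood at 48.5% and 35.1%, close to the domains above it. Both lines reached 50% in 642 domains (27.7%), line A alone in 404 (17.4%), line B alone in 161 (6.95%) and neither in 1109 (47.9%). Over all NPC peaks these shares were 20.5%, 15.4%, 8.41% and 55.6%. No MEF peak of either line touched 514 domains (22.2%), beside 45.2% of all NPC peaks. The median coverage was 39% by line A and 14.3% by line B, beside 0% in each line over all NPC peaks. By length, 42.1% and 33.1% of all wide-domain sequence lay under the lists. This was close to the 40.6% and 32.3% of the length of all NPC peaks. Single MEF peaks enclosed 229 domains in line A and 241 in line B. The line A list is the longer one (276.2 against 235.7 Mb), and assay and cell type both differ between NPC and MEF and cannot be told apart.

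Coverage did not rise with width. At 10 to 15 kb, 47.1% and 37% of the 1166 domains were covered by line A and line B, and above 50 kb 38.4% and 25% of the 112 (intervals 29.4 to 48.1% and 17.3 to 34.1%). It was higher where a domain held a gene. Of the 203 domains with a whole gene inside, 60.6% (interval 53.5 to 67.4%) were covered by line A and 52.2% (45.1 to 59.3%) by line B. Of the 1084 that overlapped genes in part the shares were 48.1% and 37.4%, and of the 1029 without a gene 39.1% and 28.4%.

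**Figure D2:**
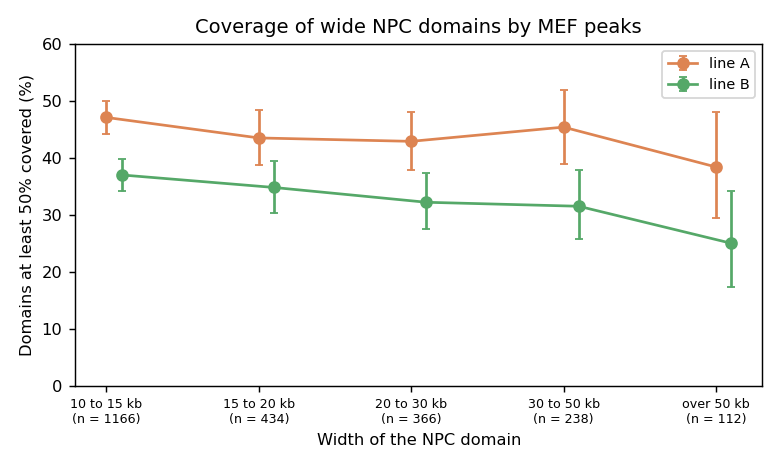
Percent of wide NPC domains with at least 50% of their length under line A or line B peaks, by width of the domain. Bars are 95% exact binomial intervals and n the number of domains; line A lies above line B in each width group, from 47.1% and 37% at 10 to 15 kb to 38.4% and 25% above 50 kb.

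The domains of each kind carried different genes. Covered over at least 50% by both lines were, after the Cbfa2t3, Tcf20 and Tox2 domains, those at Megf11 (114.5 kb), Srcin1, a regulator of Src kinase (106.8 kb), and Slit1 (79.2 kb). Covered by line A and not at all by line B were domains at Insc, a gene of spindle orientation (85.4 kb), Dlx5 and Dlx6, Dusp8 (44 kb), the factor gene Maf (35.6 kb), Pax3 (34.5 kb), and Cd163l1 with Olfr524 (27.9 kb). Covered by line B and not at all by line A were domains at Magel2 and Ndn, paternally expressed genes of the Prader-Willi region (65.6 kb), Aff3 (27.5 kb), Nlrc5, an activator of MHC class I genes (26.3 kb), Itprid1 (24.8 kb), the potassium channel gene Kcna3 (24.5 kb) and Foxd1, of kidney stroma and retina (24.3 kb). Domains without a peak of either line lay at Hs3st4 (94.9 and 72.9 kb), Kif5c (75.8 kb), the membrane protein gene Emp1 (68.6 kb), Adamtsl3 (65.4 kb) and Sycp2, a gene of the meiotic chromosome axis (64.5 kb).

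**Figure D3:**
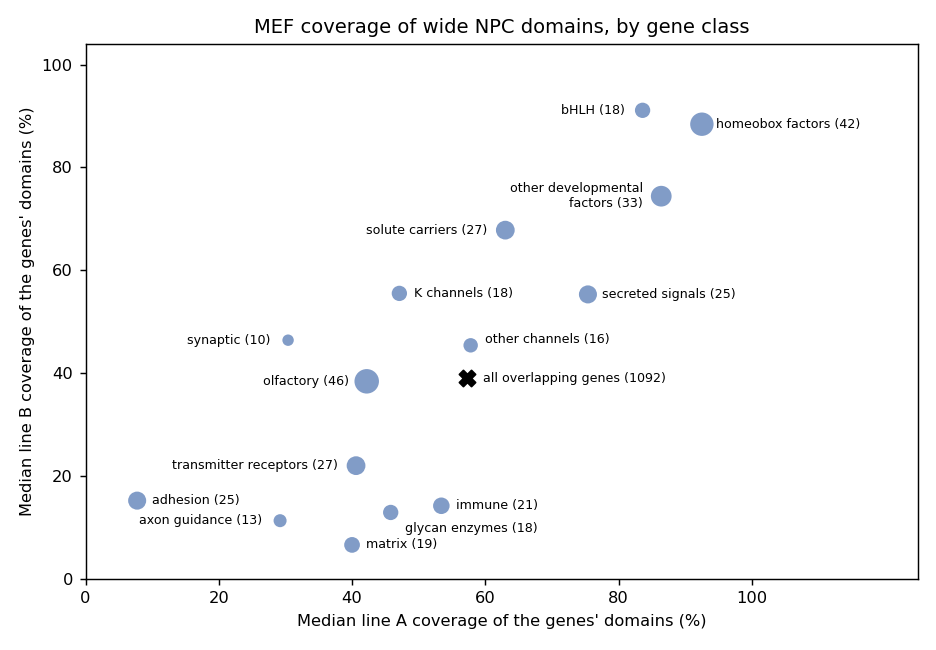
Median coverage of the wide NPC domains of each gene class by line A (horizontal, percent) and line B peaks (vertical, percent). Each point is a class with at least 10 overlapping genes (number in brackets, area in proportion), and the cross marks all 1092 overlapping genes at 57.2% and 39%; homeobox, bHLH and other developmental factors lie at the upper right, and adhesion genes at 7.75% and 15.2%.

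Chromosome 7 carried more wide domains than any other autosome. It held 404 of the 2316 (17.4%) over 8.64 Mb, against 52 to 180 on each of the others, and 13.4% of all NPC peaks, against 9.82% of the genes. Of its NPC peaks 6.72% were wide, against 4.93% on the other autosomes, where chromosome 9 reached 6.52%. The median width was 15 kb on chromosome 7 and 14.9 kb elsewhere. Wide domains overlapped 179 of its 2030 genes (8.82%, interval 7.62 to 10.1%), beside 913 of 18635 on the other autosomes (4.9%, interval 4.59 to 5.22%). The domains lay mainly in the distal part. Before 60 Mb there were 68 (3.61% of the NPC peaks there) and from 60 Mb on 336 (8.14%), with 58 of 1025 and 121 of 1005 genes reached. The split at 60 Mb was chosen after the values were seen.

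**Figure D4:**
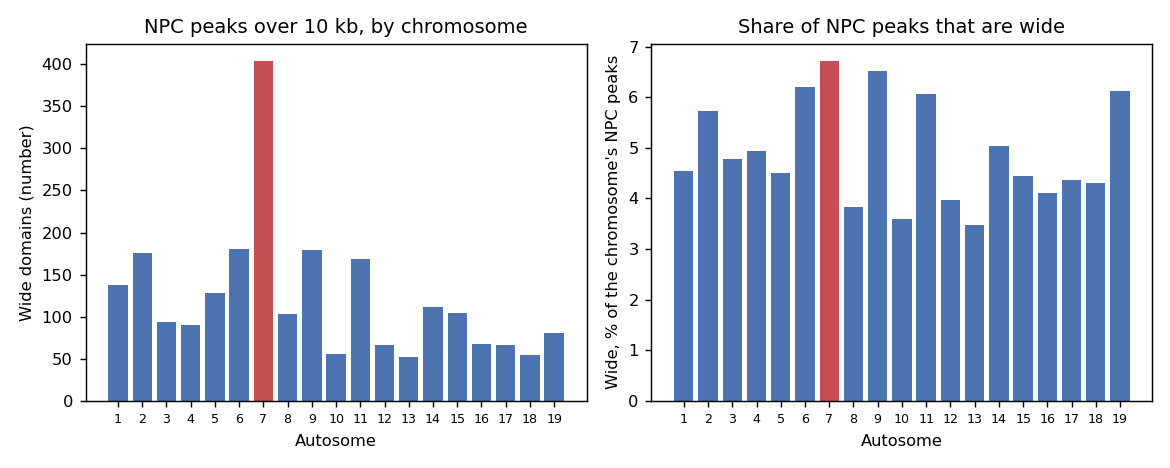
Number of wide NPC domains on each autosome (left) and percent of each autosome's NPC peaks that are wide (right). Chromosome 7, in red, holds 404 domains against at most 180 elsewhere, while its share of wide peaks, 6.72%, lies close to the 6.52% of chromosome 9.

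MEF coverage on chromosome 7 differed between the lines. Line A peaks covered at least 50% of 163 of its 404 wide domains (40.3%, interval 35.5 to 45.3%), beside 24.6% of all NPC peaks of chromosome 7. On the other autosomes they covered 883 of 1912 (46.2%, interval 43.9 to 48.4%), beside 37.7%. Line B peaks covered 49 on chromosome 7 (12.1%, interval 9.11 to 15.7%), beside 7.68%, and 754 elsewhere (39.4%, interval 37.2 to 41.7%), beside 32.2%. Line A alone reached 50% in 120 domains of chromosome 7 (29.7%) and line B alone in 6 (1.49%). Over all NPC peaks of the chromosome these shares were 18.9% and 2.01%. The line B list as a whole was short there, with 5.15 Mb and 56 peaks above 10 kb, against 15.1 Mb and 300 such peaks in line A. Its part in the result was not tested.

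**Figure D5:**
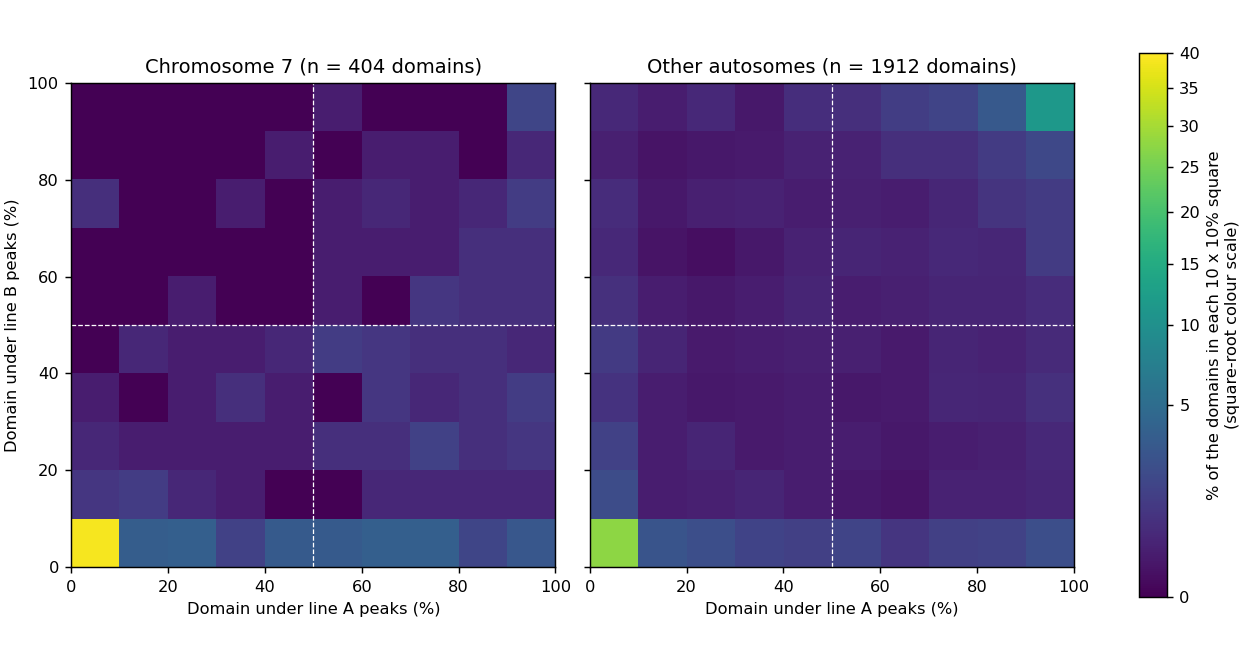
Share of wide NPC domains by their coverage by line A (horizontal, percent) and line B peaks (vertical, percent), for chromosome 7 and the other autosomes. Colour gives the percent of domains in each square of 10 by 10% on a square-root scale, and dashed lines mark 50%; on chromosome 7, 38.9% of the domains lie in the lowest square and 1.73% in the highest, against 27.5% and 11.4% elsewhere.

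The genes with the most covered sequence on chromosome 7 were Tenm4, Hs3st4 and Kcnq1, followed by Dlg2, a synaptic scaffold (112.6 kb), Adamtsl3 and Gsg1l, an AMPA receptor partner (105.3 kb). Besides those over Tenm4, Hs3st4 and Insc, the 6 widest domains of the chromosome were 1 without a gene next to the Magel2 and Ndn domain (120 kb, line A 0%, line B 71.5%), 1 over a predicted gene (109.3 kb, 15.9% and 0.181%) and 1 around Calca, which encodes calcitonin and its related peptide (84.1 kb, 96.4% and 39.9%). Imprinted genes of the chromosome, in which the parental copies differ in expression, lay in domains of unlike MEF coverage. At Magel2 and Ndn it was 0% by line A and 74.8% by line B, at Snrpn (81.6 kb in 5 domains) 4.07% and 3.46%, at Kcnq1 85% and 26.1%, at Ascl2 82.2% and 69.2% and at Slc22a18 83.1% and 30.8%. The lists do not tell the parental copies apart. Dlg2, Gsg1l, Snrpn, Ascl2 and Slc22a18 were named after their values were seen.

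Several microRNA genes lay under wide domains. Of 1136 autosomal microRNA records 30 (2.64%) lay inside, and none overlapped in part only. Of protein-coding records, which are longer, 1.11% lay inside and 5.28% overlapped. The microRNA records lay in 23 domains, some of them shared by neighbours. Each MEF line covered 12 of the 23 over at least 50%, beside 45.2% (line A) and 34.7% (line B) of all wide domains. The mature sequences of 6 that are known from particular tissues follow, with the seed (bases 2 to 8) in capitals, since the seed selects the targets. They are from RefSeq (GRCm38.p6) and were chosen after their domains were seen.

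mmu-miR-216a-5p: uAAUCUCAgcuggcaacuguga
mmu-miR-216b-5p: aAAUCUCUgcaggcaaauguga
mmu-miR-217-5p: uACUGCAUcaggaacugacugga
mmu-miR-129-5p: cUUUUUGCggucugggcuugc
mmu-miR-137-3p: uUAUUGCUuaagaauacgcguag
mmu-miR-135a-5p: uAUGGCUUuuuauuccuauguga

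Mir216a and Mir216b (chr11:28757012-28757083 and chr11:28746191-28746276), microRNAs of the exocrine pancreas, shared a domain of 80 kb that overlapped no protein-coding gene and was covered over 48.2% by line A and 89.8% by line B. Mir217, beside them (chr11:28763728-28763835), lay in a domain of 17.5 kb with 72.9% and 67.3%. Mir129-2 (chr2:94241364-94241453), of neurons, lay in a domain of 74.6 kb with 18.8% and 94.2%, and Mir137 (chr3:118433857-118433929), of neuronal maturation, in a domain of 19.3 kb with 9.19% and 32%. The 96.2-kb domain around Mir135a-2 (chr10:92072086-92072185) had 2.21% and 0.353%. Each of these domains overlapped no protein-coding record. Mir375, of pancreatic islets, lay with Fev and Cryba2 in a domain of 34.1 kb (62% and 100%), and Mir1a-1, of heart and skeletal muscle, in a domain of 28.6 kb (91% and 98.6%).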

How the data were processed

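The files were 3 lists of H3K27me3 peaks (NPC, MEF line A, MEF line B) deposited by the authors for the whole series, with chromosome, start and end and no score, so the unit of the deposited columns is position in bp. Tools listed in the submitters' processing notes are MACS2 2.1.1.20160309, Bowtie2 2.2.9, deepTools, Picard and DESeq2, without saying what each did. How replicates were pooled, which control and threshold served the calls, and how nearby calls were joined into 1 peak is not given in the sources read here, and the joining bears directly on width. Depth is unknown, the number of peaks alone limits precision, and the labels do not say whether replicates were separate cultures.

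Peaks with end minus start above 10000 bp were kept. Starts were read as 0-based. Genes were 20665 autosomal protein-coding records of RefSeq (GRCm38.p6), out of 21900 protein-coding records, and overlap meant at least 1 bp. The lists hold no sex chromosome. Coverage is the share of a domain's bases under peaks of a MEF list, and 50% counted as covered. Of a gene's or a class's domains, coverage is over the summed domains of each gene, and a class value is the median over genes. Promoter windows (300 bases) were those nearest the 5' end of each record, and 832 of the 1092 overlapping genes had one. CG dinucleotides were counted on 1 strand, which gives the count of both. Python 3.11.15 with pandas 2.3.3, numpy 2.4.6 and scipy 1.17.1 was used. Each share has a 95% exact binomial interval (Clopper-Pearson), and where the count was 0 the limit given is that of 3 counts. The steps that overlap and join peaks and measure coverage were tested on simulated positions. The binomial intervals were not part of that test. No test was made, as peaks and genes are not replicates.

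The members and the 26 gene classes were chosen with earlier results of these data known. By the rule for names, the text names the 10 widest domains, the 6 widest of chromosome 7, the 12 longest genes inside, up to 4 members of each class by covered length, the 6 widest gene-bearing domains of each kind of MEF coverage, and the 3 domains and 3 peaks next to the threshold. Cell type markers are named in addition, and predicted genes are only counted. Not every gene under this rule is reported here. Other names were chosen after their values were seen. Alternatives were 3 other widths, other overlap and coverage minimums, joined peaks (gaps under 3 kb), equal numbers of MEF peaks, and leaving out predicted genes or chromosome 7.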

Additional observations from a re-analysis of the deposited data

How the results depend on the processing

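Of 129 alternative values, 91 kept their side, 23 moved and 15 changed sign. Width sets how many domains there are: 1150 above 15 kb, 716 above 20 kb and 3783 where NPC peaks under 3 kb apart were joined. The genes overlapped then numbered 664, 453 and 1730, and 446 with at least 50% of the record and 230 with the whole record inside. Domains without a gene made up 46.9% above 8 kb, 38.7% above 15 kb and 37.3% above 20 kb. The share covered by line A was 70.5% at 1 bp, 58.2% at 20%, 27.9% at 80%, 50.5% with MEF peaks joined and 43% for domains above 20 kb. For line B it was 62.3%, 47.7%, 22.4%, 40.1% and 30.9%, with 32.3% above 15 kb and 39.4% without chromosome 7. The share of wide domains on chromosome 7 stayed within its interval at each width and with peaks joined. Its line B coverage lay below that of the other autosomes under each of the 6 alternatives run, while its line A coverage lay 1.43 percentage points above theirs for domains above 20 kb. With the whole record inside, the difference of a class from all genes changed sign for other channels (-0.0377 percentage points), adhesion, guidance and glycan genes (-1.11 each), solute carriers (-0.839), immune genes (-0.0576), matrix genes (-0.378), orphan receptors (1.16) and olfactory receptors (1.61). By promoter window it did for orphan receptors (0.0885) and for progenitor and fibroblast markers (-3.24 each), and without chromosome 7 for immune genes (-0.226) and kallikreins (-4.9). The cause was not tested where the setting itself does not show it. The comparisons of chromosome 7 and of classes under other settings were chosen after seeing the data. No paired analysis was possible because the lists hold no values per library, and for the same reason no replicate could be left out. No depth or signal was analysed, so a gap between peaks does not show that the mark is absent.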

Other observations

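Some wide domains stood in runs, found by joining domains under 50 kb apart after the values were seen. The most domains, 16, lay at chr7:137476925-137976640, where they covered 60.9% of 499.7 kb without a protein-coding gene, with 10% of their length under line A peaks and 0.253% under line B peaks. At chr7:124074753-124463390, 10 domains around Hs3st4 covered 87.7% of 388.6 kb with no MEF peak. At chr11:12166392-12546259, 9 domains around Cobl, an actin nucleator of neurons, covered 78.9% of 379.9 kb, with 53% and 2.27% of their length under line A and line B peaks. The 9 domains at chr16:29713532-30065385 ended at the edge of Hes1, with 2.19% and 27.7%. At chr9:61422450-61904089, 8 domains covered 93.8% of 481.6 kb without a protein-coding gene, with 68.4% and 20.3%. At chr11:81848528-82171996, 11 domains took in part of Asic2 and the chemokine genes Ccl8 and Ccl11, with 27.4% and 26.7%.

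Long noncoding RNA records overlapped wide domains at 659 of 12408 genes (5.31%), close to the 5.28% of protein-coding genes. Of the 1029 domains without a protein-coding record, 292 (28.4%) held or met such a record, among them the widest domain, with 8.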
